A study of Mus musculus and Bos taurus with 2 samples.

Results

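The models described here are mouse transcripts that follow a known gene in part but finish in a last exon that no exact match in the library contains. They were chosen from the transcript models of 1 library of late 2-cell mouse embryos by structure alone. A model had to share a splice site with a reference gene without matching any reference transcript (class code j) and have 2 or more exons. Its last exon in the direction of transcription had to overlap, on its own strand, no exon of any model with the intron chain of a reference transcript (an exact match). Its gene had to have at least 1 exact match of several exons, and models whose first exon had 1 length set in the rule were left out. The rule gave 951 of the 42028 mouse models, from 708 genes, out of 82847 models in both libraries. These last exons are called unmatched below. The rule used the last exon and its overlap with exact matches, so the number of models and that overlap describe the choice and are not results.

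The mouse library came from about 200 in vitro produced late 2-cell embryos of the Slc:ICR stock, cultured in KSOM medium and collected 36 h after insemination. The other library of the series came from about 200 bovine embryos of 8 to 16 cells, from Japanese Black or Japanese Black × Holstein F1 oocytes fertilised with Japanese Black sperm and collected at 72 h. Both were in vitro produced, pooled as whole embryos, amplified as poly(A) cDNA with 14 cycles of PCR and read on a nanopore MinION. With 1 library for each species, replicate error could not be estimated and the groups were not tested against each other. Of a list of 2-cell genes, 17 of 25 had an exact match of several exons. Over all gene lists used below, 362 of 525 distinct symbols had one, so this count does not check the labelled stage. Counts of reads are missing from the models, so depth is unknown. Intervals are exact Clopper-Pearson 95% intervals that cover counting error only. Fewer embryos making a transcript and less of it per embryo cannot be told apart.

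As background, the last exon of an mRNA usually holds the stop codon, the 3′ untranslated region and the poly(A) signal, a short motif that directs cleavage and addition of the poly(A) tail. When cleavage happens inside an intron, the transcript ends early in a last exon of its own, and the encoded protein is cut short. U1 snRNP, best known for recognising 5′ splice sites, also holds back cleavage inside introns. In mammalian oocytes and early embryos the 3′ untranslated region decides how stored mRNAs are translated and degraded.

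The sequences below show how such a model leaves its gene. Each is the last 15 bases of the exon before the splice, in lower case, and the first 15 bases of the unmatched last exon, in capitals, 5′ to 3′ on mm10. The genes were chosen after their values were seen, because GENCODE M21 transcripts cover the exon and so give its bases.
Ccar1: accattttaacacagAATACGAGGCTAGGG
Gigyf2: ctttgggcctgaatgATATGTTTGGACCCC
Orc1: aattatttcaaaatgCAACTCCAGGCCTGT
Igf2bp3: cacttacaatgggagATGATGGCCCTTCAG
Top2a: agaagaaagtgacagGGCTGGATGACATTT
Ptbp2: gcatggtagttacagGTCATAAAAGGATGG
Tcf12: agttcagcgggtcagTGTCCAAGAGATGGG
Xpr1: cccttgtgtttgcagGAGTTTTAGAGTTCA

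The Ccar1 junction joins chr10:62783234-62783248 to chr10:62782278-62782292 on the minus strand. The Gigyf2 junction joins chr1:87354472-87354486 to chr1:87354981-87354995 on the plus strand. Orc1 encodes the largest subunit of the origin recognition complex, and its junction joins chr4:108590763-108590777 to chr4:108592887-108592901 on the plus strand. The junction of Igf2bp3, an RNA-binding protein gene, joins chr6:49168470-49168484 to chr6:49168091-49168105 on the minus strand. That of the topoisomerase gene Top2a joins chr11:99018796-99018810 to chr11:99016927-99016941 on the minus strand. In Ptbp2, a splicing repressor gene, chr3:119761703-119761717 is joined to chr3:119760717-119760731, also on the minus strand. In Tcf12, a basic helix-loop-helix factor gene, chr9:72109676-72109690 is joined to chr9:72108885-72108899 on the minus strand. In Xpr1, a phosphate exporter gene, chr1:155324314-155324328 is joined to chr1:155324099-155324113 on the minus strand.

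Most of the unmatched last exons lay inside their gene. In 656 of the 951 models (69.0%, 95% interval 65.9% to 71.9%) the last exon sat wholly inside an intron of an exact match. In 252 models (26.5%, 23.7% to 29.4%) it lay downstream of all exact matches of the gene, and in 43 (4.52%, 3.29% to 6.04%) upstream of them. The downstream exons began at a median of 8.12 kb beyond the last exact match, with quartiles of 2.22 and 22.6 kb. Of the 252, 69 fell inside the span that GENCODE gives the gene, which there runs past the exact matches, and 126 were downstream of that span too. Among the upstream models, 3 belonged to Dmd, the dystrophin gene, whose only exact match was a short transcript of its 3′ part. They ended 1420 to 1687 kb before its start.

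An independent annotation split the models further. GENCODE M21 on the same build had an exon of the same gene at the last exon of 315 models (33.1%, 30.1% to 36.2%), an exon of another gene only at 64 (6.73%, 5.22% to 8.51%), and no exon on that strand at 572 (60.1%, 57.0% to 63.3%). Of the 379 that touched an annotated exon, 253 used an annotated splice acceptor (66.8%, 61.8% to 71.5%) and 198 ended within 50 bp of an annotated end (52.2%, 47.1% to 57.4%). The annotated transcripts of the same gene at these exons were often not coding ones: at 182 of the 315 (57.8%, 52.1% to 63.3%) none was of the type protein coding, and processed transcripts occurred at 145, retained introns at 75 and targets of nonsense-mediated decay at 37. The 182 include models of genes that GENCODE does not call protein coding, and the share of such transcript types over all GENCODE exons was not counted. The chart of positions shows the split by position and the split by GENCODE exon.

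**Figure D1:**
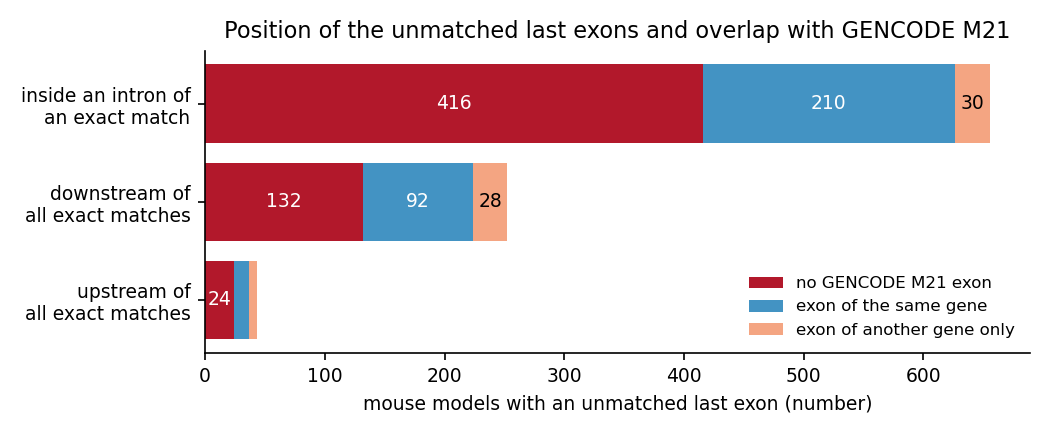
Number of mouse models with an unmatched last exon (horizontal axis) by the position of that exon relative to the exact matches of its gene, coloured by overlap with GENCODE M21 exons on the same strand. The 416 models inside introns with no GENCODE exon form the largest of the parts drawn.

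The models mostly began as known transcripts do. The first splice donor was that of an exact match of the gene in 655 of the 951 models (68.9%, 65.8% to 71.8%), against 2380 of the 5237 other gene-linked models of the library (45.4%, 44.1% to 46.8%). These others are models of class j from genes with an exact match, under the same limit on the first exon. The last donor was annotated in the same sense in 624 models (65.6%, 62.5% to 68.6%). In 452 models (47.5%, 44.3% to 50.8%) every exon up to the last splice followed an exact match from its first donor on, so that only the last exon differed. That held for 400 of the 656 models inside introns (61.0%, 57.1% to 64.7%) and 52 of the 252 downstream ones (20.6%, 15.8% to 26.2%). The first exon also lay outside all exact matches in 225 models (23.7%, 20.99% to 26.5%), against 2043 of the 5237 others (39.0%, 37.7% to 40.3%). Every model of class j differs from the reference transcripts somewhere, and the rule already places a difference of these models at the last exon. Both comparisons with the 5237 others are therefore in part set by the rule.

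The unmatched last exons were short. Their median length was 371 bp with quartiles of 216 and 707 bp, against 1362 bp with quartiles of 566 and 2353 bp for the 1404 exact matches of the same genes. In 748 of the 951 models the last exon was shorter than the median last exon of the gene's exact matches. The shortest had 10 bp, in the model of Jagn1, and the longest 5346 bp, in the forkhead factor gene Foxj3. Next came 2 models of Gnb1l with 4899 bp and 1 of Il17rd with 4223 bp. GENCODE has an exon of the same gene at that of Foxj3 and of another gene only at that of Gnb1l. It has none at that of Il17rd. The exons under 20 bp, 11 in all, were all downstream of the exact matches of the gene. That of Chchd4, with 13 bp, overlapped a GENCODE exon of the same gene. It used no annotated acceptor, had no annotated end within 50 bp, and 14 of the 20 genomic bases up to its end were A. Whether exons this short are correctly aligned was not tested. Exons under 100 bp made up 45 of the 252 downstream models (17.9%, 13.3% to 23.2%) but 17 of the 656 inside introns (2.59%, 1.52% to 4.12%). Exact matches of the same genes had 9 such exons in 1404 models. Whole models had a median of 5 exons and 1125 bp, against 7 exons and 1870 bp in the 5237 other gene-linked models and 12 exons and 3076 bp in the exact matches of the same genes. An overlap with an exon is likelier for a longer exon, and length was not allowed for in the rule.

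**Figure D2:**
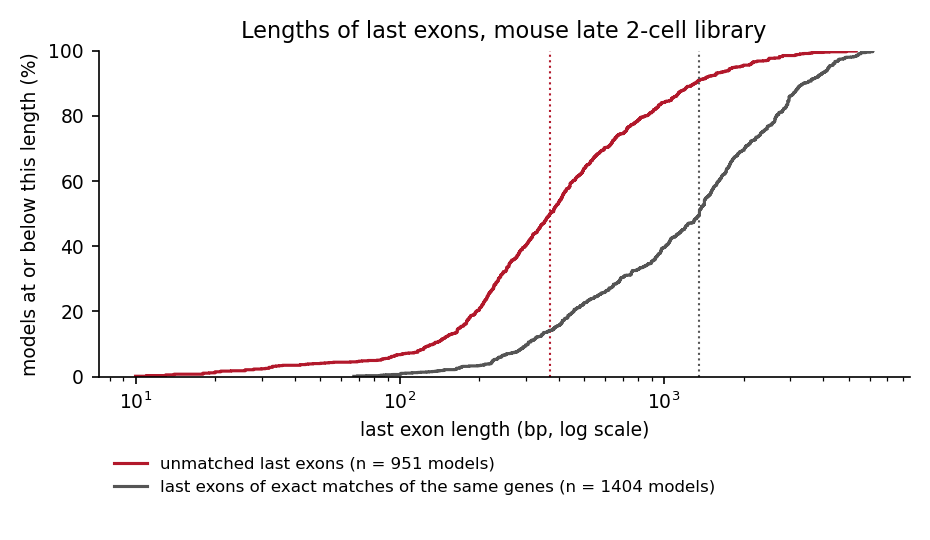
Cumulative share of models (vertical axis, percent) at or below each last exon length (horizontal axis, bp, log scale) for the unmatched last exons and for the exact matches of the same genes. Dotted lines mark the medians, 371 bp and 1362 bp.

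Inside introns, the exon was usually reached from the donor that opens the intron. This was so in 546 of the 656 models (83.2%, 80.1% to 86.0%). Over these 546, the intron had a median length of 7.29 kb (quartiles 3.53 and 17.8 kb), against 1.91 kb (0.765 and 4.61 kb) over all introns of the transcripts concerned. It was longer than the median intron of its own transcript in 470 of 539 models with at least 2 introns (87.2%, 84.1% to 89.9%), and the longest of them in 197 (36.5%, 32.5% to 40.8%). It was the first intron in 125 of the 546 (22.9%, 19.4% to 26.7%) and the last in 49 (8.97%, 6.71% to 11.7%). A longer intron has more room for an exon, which these shares do not allow for. The distance from the donor to the unmatched exon had a median of 1.35 kb (0.633 and 3.87 kb), and the exon began at a median of 24.5% of the intron's length from its donor.

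**Figure D3:**
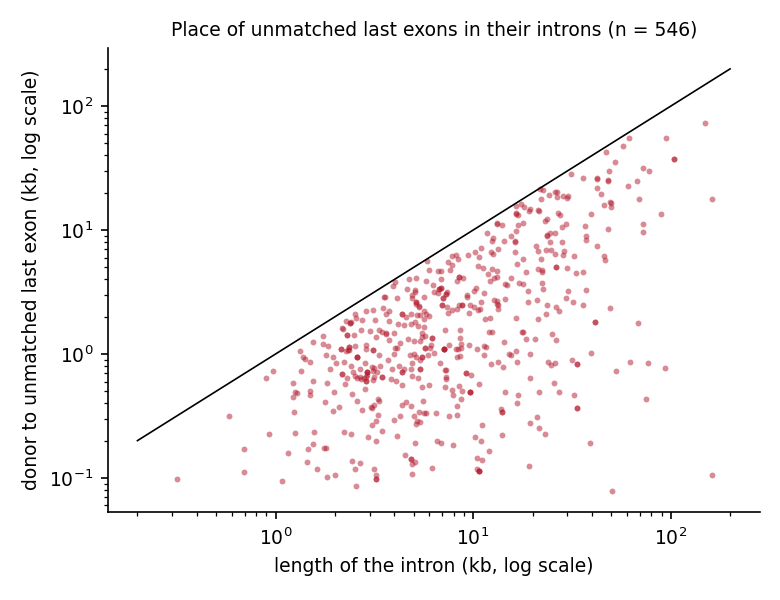
Distance from the splice donor to the unmatched last exon (vertical axis, kb, log scale) against the length of the intron that holds it (horizontal axis, kb, log scale), 1 point per model, n = 546. The line marks equal values, and points far below it start close to the donor.

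Genes with such models were longer than other genes with an exact match. The span of their exact matches had a median of 37.8 kb over the 708 genes, against 16.1 kb over the 8525 genes without one, and their longest intron 12.9 kb against 5.58 kb. They had a median of 4 sense models against 2, and 1 exact match in both sets. Because the rule needs a further model of the gene, the number of models is in part set by it. The 8525 include genes with only 1 sense model, which cannot have such a model. Span and longest intron were not compared at equal numbers of models. In all, 7.67% of the 9233 mouse genes with an exact match had a model with an unmatched last exon, and this share is the background for the gene lists below. Of the 951 models, 880 belonged to genes that GENCODE calls protein coding.

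Where a coding frame could be placed, most models left the gene within its coding sequence. A GENCODE coding transcript with the intron chain of an exact match, and a donor shared with the model, was found for 678 models. The last shared donor lay within the coding sequence in 605 (89.2%, 86.7% to 91.5%), before the start codon in 68 (10.03%, 7.87% to 12.5%) and after the stop codon in 5 (0.737%, 0.240% to 1.71%). How many of all donors of these coding transcripts lie within the coding sequence was not counted, so these shares have no background. In 455 of the 605 the start codon and every exon from it to that donor were kept. These 455 models kept a median of 114 codons (quartiles 47 and 248), or 27.4% of the coding sequence (10.8% and 62.3%). In 193 of them (42.4%, 37.8% to 47.1%) under 20% of the codons lay before the departure. For 50 models the bases of the whole last exon were available, and an in-frame stop codon lay inside that exon in 50 of 50 (92.9% to 100%), after a median of 17.5 further codons (quartiles 6.25 and 26). Models that share a last exon were counted separately, such as 3 of Ccar1 with 19 codons added in each. The interval and the median therefore count some exons more than once. In Gigyf2 the stop codon is formed across the junction printed above, with 0 codons added. Orc1 kept 73 of 840 codons and added 41, Igf2bp3 kept 95 of 579 and added 5, and Top2a kept 158 of 1528 and added 5. Ptbp2 kept 38 of 532 codons and added 11, and Tcf12 kept 49 of 706 and added 9. Of the models of Xpr1, 1 kept 254 of 695 codons and added 7, and the other kept 40 and added 2. These genes left their coding sequence at different points and stopped within 41 codons of the junction. Bases that do not code also hold stop codons in any frame, and their rate was not counted. The stops found here therefore have no background to be set against. The last exons with known bases are those that annotated transcripts cover, so they do not stand for the other models.

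**Figure D4:**
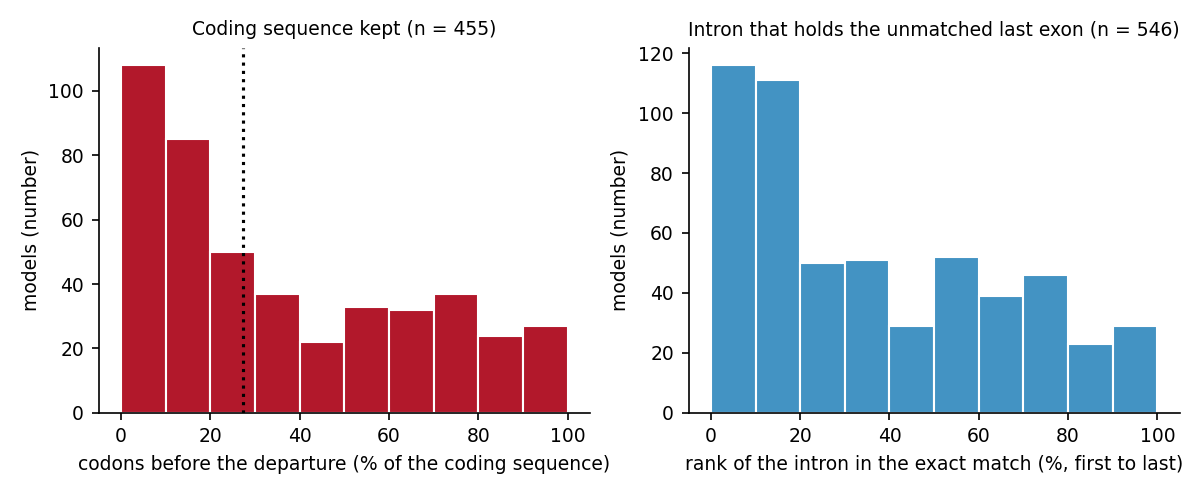
Left, number of models by the share of codons that lie before the last donor shared with the coding transcript, n = 455, with the median of 27.4% dotted. Right, number of models by the rank of the intron that holds the unmatched last exon, from first to last intron of the exact match, n = 546.

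The 3′ ends were searched for the poly(A) signals AATAAA and ATTAAA in their last 40 bases, on the transcribed strand only. The bases were known for 125 of 812 distinct ends of these models. These are ends that GENCODE transcripts or RefSeq promoter windows cover, so they do not stand for the other ends. AATAAA occurred in 67 of them (53.6%, 44.5% to 62.6%), ATTAAA in 22 (17.6%, 11.4% to 25.4%) and either motif in 80 (64.0%, 54.9% to 72.4%). Among 652 ends of exact matches of the same genes with known bases, the counts were 374 (57.4%, 53.5% to 61.2%), 118 (18.1%, 15.2% to 21.3%) and 476 (73.0%, 69.4% to 76.4%). As a background of the same length, the first 40 bases of 310 of the unmatched last exons held either motif in 13 cases (4.19%, 2.25% to 7.06%). The count of each motif includes the 9 of the 125 windows that held both.

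Some of the signals are shown in 30 base windows near the end of the model, 5′ to 3′ on mm10. AATAAA is in capitals, or ATTAAA where AATAAA is absent.
Gigyf2: cAATAAAtgtttattaaatgaatgagtgaa
Orc1: ccaaaAATAAAggaaagtggagcaacctaa
Ptbp2: tctgacAATAAAccaattaaatgtctgcaa
Tcf12: aggaaAATAAAagcaatttgattgcatgta
Igf2bp3: tgaaaATTAAAcaatctcactattgtgttt
Ccar1: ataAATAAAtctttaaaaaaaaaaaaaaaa

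These windows lie at chr1:87357675-87357704 (plus strand), chr4:108593027-108593056 (plus), chr3:119760554-119760583 (minus), chr9:72108555-72108584 (minus), chr6:49167915-49167944 (minus) and chr10:62782049-62782078 (minus). The signal in capitals began 39 bases before the end of the model in Gigyf2, 29 in Orc1, 24 in Ptbp2, 32 in Tcf12, 27 in Igf2bp3 and 37 in Ccar1. The windows of Gigyf2 and Ptbp2 also hold ATTAAA, left in lower case, nearer the end. The window of Ccar1 runs into a stretch of A in the genome. A-rich ends, with 12 or more A among the last 20 bases, made up 23 of the 125 known ends (18.4%, 12.04% to 26.3%). Among them were those of Ccar1, Chchd4, Top2a and Pola1. The exact matches had 54 such ends of 652 (8.28%, 6.28% to 10.7%). In the 20 bases after the end, 3 of 89 models (3.37%, 0.701% to 9.54%) and 11 of 280 exact matches (3.93%, 1.98% to 6.92%) were that rich in A. The part of priming on genomic A in these ends was not tested.

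The genes with most such models were Gm33800, Sfi1 and A530032D15Rik with 6 each. Sfi1 encodes a centrin-binding protein of the centrosome. Of its models, 4 ended in 1 shared exon of 179 bp at chr11:3152146-3152324 inside intron 14 of 32, where GENCODE has no exon. Gm33800 had 4 models ending at chr9:120004728-120005110, where GENCODE has an exon of Gm47043. The models of A530032D15Rik, a gene of a cluster of near-identical copies on chromosome 1, ended 95.1 to 97.4 kb downstream in exons annotated to Gm29284, and the copy to which they belong is uncertain. Platr25, with 5 models, had all of them upstream of its exact match.

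Csnk1e, Zmynd8, Ccar1 and Rab3gap1 had 5 models each, all inside the gene. In Csnk1e, the gene of casein kinase 1 epsilon that phosphorylates clock proteins, all 5 ended in the same 1576 bp exon at chr15:79422480-79424055 inside intron 7 of 11. It overlaps exons of GENCODE transcripts of the gene, protein-coding ones and retained introns. In Zmynd8, a chromatin reader gene, 4 of 5 ended in a 594 bp exon at chr2:165827124-165827717 inside intron 12 of 23, which also overlaps a protein-coding transcript of the gene. Ccar1, the gene of a transcriptional coactivator of cell cycle and apoptosis genes, had 4 models that ended at the same base inside intron 5 of 24, after 105 of its 1146 codons, at an exon that GENCODE assigns to another gene, Gm48146. The fifth ended inside intron 10, after 369 codons. Rab3gap1, the catalytic subunit gene of a GTPase-activating complex for Rab3, had 5 different last exons of 45 to 351 bp, none with a GENCODE exon.

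Among the genes with 4 models, Csnk2a1, Ipo11, Gpatch8, Gabpb2 and Dmd had 4 different last acceptors, Zfp54 had 3, and Gigyf2 had 2. Csnk2a1, the catalytic subunit gene of casein kinase 2, had 3 models that ended at the same base in intron 8 of 12. Their last exons had 1955, 3544 and 3619 bp, and the longer pair kept 207 of 391 codons. The remaining model had 2 exons and ended in intron 1, before the start codon. Ipo11, a nuclear import receptor gene, departed late, with 750 codons kept of 975 in 2 models, 820 in another and 860 in the fourth. Gigyf2, a translational repressor gene, departed early, with 3 models that kept 13 of 1291 codons and ended in a 2734 bp exon at chr1:87354981-87357714, and 1 that kept 89 codons. Gpatch8 kept 15 codons in 1 model and 40 in 2 others, of 1505. The zinc finger gene Zfp54 kept 10 codons in 3 models and 52 in the fourth, of 585.

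**Figure D5:**
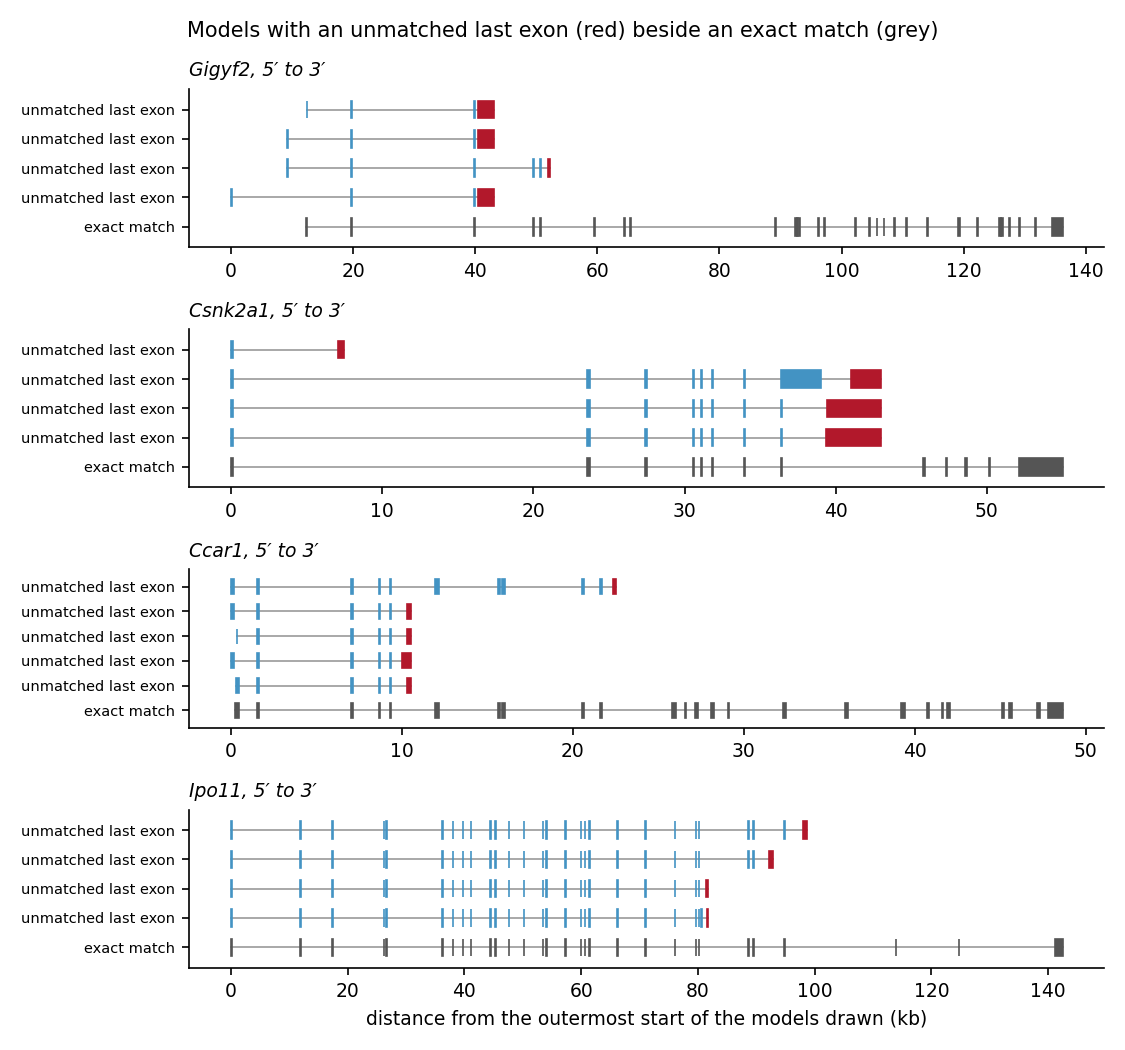
Exon maps of all models with an unmatched last exon (red) of Gigyf2, Csnk2a1, Ccar1 and Ipo11, drawn 5′ to 3′ above the exact match of the gene with most exons (grey), against distance from the outermost start drawn (kb). Very short exons have a minimum width for visibility, and the models of Ipo11 run further along the gene than those of Gigyf2.

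Last exons were shared between models in part. The 951 models used 848 different last acceptors, 74 of them in 2 or more models, which made up 177 models. The acceptor also occurred in a model outside the rule for 50 of the 951. Further exons shared by 4 models were those of Pspc1, a paraspeckle protein gene, 24.4 kb downstream of its exact match at chr14:56696275-56698038, of Tmem191c 4.15 kb downstream, of Erdr1 on the Y chromosome 5.82 kb downstream, and of Xiap, an inhibitor of apoptosis, inside intron 2 of 7 at chrX:42072474-42072638. At these exons GENCODE has an exon of another gene only for Pspc1, exons of the same gene for Tmem191c and Xiap, and none for Erdr1. Models of 1 gene that share a last exon are not separate observations of it. Only 3 models had an unspliced model of the library at their last exon and 2 had the first exon of another model there, while 66 overlapped the last exon of another model.

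Downstream exons reached other genes in some cases. The last exon overlapped an exon of another gene on the same strand in 31 of the 252 downstream models (12.3%, 8.51% to 17.0%), from 22 genes, and these were looked up after the counts were seen. Named neighbours included Lbx2 for Pcgf1, a Polycomb subunit gene, Sigirr for Ano9, Timmdc1 for Poglut1, Plekho1 for Vps45, Zbtb34 for Zbtb43, Usp49 for Gm20517 and Rsph10b for the mismatch repair gene Pms2. The last exon of the Pcgf1 model began 6.83 kb past its exact matches and held AATAAA near its end, and that of the Poglut1 model began 8.10 kb past. Mfap1a with Mfap1b and Trim34a with Trim34b are pairs of close copies, for which the assignment is uncertain. On the opposite strand, 57 of the 951 last exons overlapped a GENCODE exon (5.99%, 4.57% to 7.70%) and 31 overlapped a model of the library.

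Genes of RNA 3′ end formation themselves had such models. Of 25 cleavage and polyadenylation genes with an exact match, 4 had one (16.0%, against 7.67% of all such genes). They were Wdr33, whose product recognises the poly(A) signal, Cpsf7 of cleavage factor I, the poly(A) polymerase gene Papolg and Cdk12, a kinase that acts on RNA polymerase II. Both Wdr33 models kept 241 of 1330 codons and ended inside intron 7 of 21, a 42.5 kb intron. The Papolg models lay 1.20 kb downstream, and 1 of them kept 707 of 739 codons. Of 30 genes of U1 snRNP and splice site choice, 1 had a model (3.33%): Tra2b, which left after 12 of 288 codons into an exon that GENCODE places in nonsense-mediated decay and retained-intron transcripts. Of 25 RNA-binding and decay genes 2 had one (8.00%), Pum2 and Smg6. This list lacks Igf2bp1, Igf2bp2 and Igf2bp3, RNA-binding protein genes that also had models. With counts this small, the lists are described and not set apart from the background.

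Transcription and chromatin genes gave 5 of 28 (17.9%) and 4 of 37 (10.8%). The transcription genes included Med1 and Med14 of Mediator, its kinase gene Cdk8 and the elongation factor gene Ell. Med1 had 1 model that kept 8 of 1575 codons and another that kept 216, and Ell kept 45 of 602. The chromatin genes were the histone methyltransferase gene Ehmt1 and the demethylase gene Kdm4c with 3 models each, and Smarca4 and Smarcc1 of the BAF remodeller with 1 each. Smarca4 kept 667 of 1617 codons and Smarcc1 132 of 1104. One Ehmt1 model kept 7 of 1296 codons.

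Signalling and cell cycle lists lay at 9.52% for kinases (4 of 42), 7.69% for ubiquitin ligases and deubiquitinases (3 of 39), 10.7% for DNA repair (3 of 28) and 12.2% for the cell cycle and spindle (5 of 41). The lists are partial: Csnk1e and Araf, for example, are kinase genes with models that the kinase list lacks. The listed kinases were Csnk2a1, Csnk1a1, Map2k4 and Plk4, the master kinase of centriole duplication, which kept 450 of 925 codons. The ubiquitin genes were Nedd4, which kept 377 of 887 codons, Usp10 with 7 of 793, and Ube2h. The repair genes were Brca1, Fancc and Pms2. The cell cycle genes were the spindle motor gene Kif11, with 2 models that kept 231 of 1052 codons and ended in an exon of AC137605.4, Orc1 with 73 of 840, Bub1b, Ccnd3 and the cohesin gene Stag1. None of 8 receptor genes with an exact match had a model.

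Embryonic lists gave 2 of 17 genes of the 2-cell burst (11.8%), 3 of 30 maternal genes and 2 of 14 lineage genes (14.3%). Sp110 and Tdpoz1 were the 2-cell genes, both from families of close copies, so their assignment is uncertain. The last exon of the Tdpoz1 model began 34.3 kb downstream, and that of both Sp110 models lay 3.93 kb upstream. The maternal genes were Ooep of the subcortical maternal complex, 0.295 kb downstream with 119 of 164 codons kept, Nlrp2 with 128 of 1046, and the germ cell helicase gene Ddx4. Nr5a2, a nuclear receptor active at genome activation, kept 328 of 499 codons and ended inside intron 6 of 8, and Lin28b, a regulator of let-7, ended inside intron 3 of 5 in an exon that GENCODE lists as a processed transcript. Over all lists, 38 of 362 distinct symbols with an exact match had a model (10.5%).

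By the same rule, unmatched last exons made up 951 of 6188 gene-linked models in mouse (15.4%, 14.5% to 16.3%) and 1801 of 8348 in bovine (21.6%, 20.7% to 22.5%). The genes with one numbered 708 of 9233 in mouse and 1128 of 8274 in bovine (7.67% and 13.6%). The positions were close in both libraries, with 69.0% of the models inside the gene in mouse and 70.7% in bovine (68.6% to 72.8%), and 26.5% and 25.8% downstream. Unmatched last exons had a median of 371 bp in the mouse library and 558 bp in the bovine one. The exact matches of the same genes had 1362 bp in mouse and 950 bp in cattle. The libraries also differ in stage, time and reference annotation, which cannot be told apart from the species.

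Of 5638 symbols with an exact match in both libraries, 427 had such a model in mouse (7.57%) and 749 in bovine (13.3%). They shared 121, which is 28.3% of the mouse genes (24.1% to 32.9%) and 16.2% of the bovine genes (13.6% to 19.0%). Mouse genes with such models were longer and had more models than others, and this overlap does not allow for either. In 13 of the 121, models of both species left, inside the gene, from an exon of the same length, and in 9 of these the exon before it also had the same length. Any pair of models of a gene could give such a match. How often exons of these genes have equal lengths in both species was not counted, so these counts have no background. The distance from that exon's donor to the last exon was often unlike between the species. In Xpr1, 1 pair of models had 8 exons each, left from an 82 bp exon and reached the last exon after 200 bp in mouse and 246 bp in bovine. A second pair had 3 exons each and left from a 52 bp exon, with distances of 190 bp in mouse and 66633 bp in bovine. In Ctps2, a CTP synthase gene, the exon left was 97 bp in both, and the intron before the last exon spanned 1915 bp in the mouse model and 2033 bp in the bovine one. In Atf2, a transcription factor gene, both models had 11 exons and left from an 87 bp exon, but the last exon had 1567 bp in mouse and 66 bp in bovine, at distances of 4875 bp and 2018 bp. Igf2bp3 left from a 49 bp exon in both, with last exons of 193 bp in mouse and 827 bp in bovine, at distances of 364 bp in the mouse models and 16779 bp in the bovine one. The mouse distance was also the shorter one in Igf2bp2 (9593, 11146 and 31426 bp in 3 mouse models, 62384 bp in bovine), Rprd1a (1323 bp in mouse, 18525 bp in bovine), Tesk2 (1326 bp and 23235 bp), Ssbp2 (29798 bp and 79457 bp) and Eea1 (4082 bp and 7969 bp). It was the longer one in Prim2 (14140 bp in mouse, 2621 bp in bovine), Cpm (4987 bp and 975 bp), Lrrc41 (2257 bp and 528 bp) and Samd8 (1356 bp and 832 bp). Whether the last exons themselves correspond between the species was not tested.

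On the autosomes and the X chromosome, the models numbered between 3.55 (chromosome 3) and 8.00 (chromosome 13) per 100 exact matches of several exons. Near the limit of the rule, 8 models had a last exon less than 10 bp from an exact-match exon, and no gene-linked model outside it overlapped by less than 19 bp.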

How the data were processed

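The authors deposited StringTie transcript models, per the file headers and columns, for each library, with exon positions, gene name, closest reference transcript and class code. The only values used are these other quantities, positions in bp on mm10 and bosTau9 per the submitters' processing notes. For aligner, versions and filters nothing is stated (not given in the sources used here). A merging or abundance filter would remove rare models, and depth is unknown. Members were found by the rule and set beside GENCODE M21 (GRCm38, the same assembly as mm10). Bases came from GENCODE transcripts and from RefSeq promoter windows (GRCm38.p6), with 0 conflicts between them. Shares carry exact 95% intervals (scipy 1.17.1, numpy 2.4.6, Python 3.11.15). The rule was tested on simulated models.

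The members and the gene lists were chosen with earlier results of these data known. Named genes were the 15 with most models (ties by different last acceptors, then alphabet), the 10 last exons shared by most models, list genes with a model, and the longest and shortest last exons. Genes outside that rule were chosen after their values were seen, for known bases, for their neighbours, for exons of equal length in both species, or as kinase or RNA-binding genes that the lists lack. Codons were counted in the longest GENCODE coding sequence whose intron chain equals an exact match. Nothing was left out of the mouse file beyond the rule. 1 listed gene with a model is not reported here by name.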

Additional observations from a re-analysis of the deposited data

How the results depend on the processing

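The number of models fell to 572 when GENCODE M21 exons also served as annotation, and lay at 951, 953, 887 and 794 when an overlap under 10 bases was allowed, when models with the barred first exon length were kept, for last exons of at least 100 bp and for 3 or more exons. The share inside the gene was 80.5% by the GENCODE span, 72.0% for last exons of at least 100 bp and 72.7% without a GENCODE exon at the last exon, a setting chosen after seeing the data. The share with a known first donor was 72.2% when each last acceptor counted once. The median last exon was 322.5 bp without a GENCODE exon there. The bovine share by the same rule was 21.6%. The cause of these shifts was not tested, except that each setting takes other models or another span by construction. The other settings stayed within the interval of the value reported: the share inside with each acceptor counted once (69.2%), the first donor by overlap (71.5%) or without a GENCODE exon (70.5%), the median length by acceptor (369 bp) or with 3 or more exons (378 bp), and the share departing within the coding sequence with any coding transcript (88.0%) or without a GENCODE exon (88.9%). No paired analysis was possible because each species had 1 library.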
